A study of Mus musculus with 8 samples.

Results

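The 9 genes described here encode the high mobility group (HMG) chromatin proteins of mouse: Hmgb1, Hmgb2 and Hmgb3 of the HMGB class, Hmga1 and Hmga2 of the HMGA class, and Hmgn1, Hmgn2, Hmgn3 and Hmgn5 of the HMGN class. They were chosen by gene symbol from the 54838 annotated rows of the deposited count tables, and all 9 passed the filter on low counts in each of the 3 comparisons. The series measured poly-A RNA of mouse embryonic fibroblasts (MEFs, connective tissue cells grown from embryos), kept in serum-containing medium at reduced oxygen. The 4 groups of cells gave 2 libraries each, 8 in all. Proliferating cells carry the treatment label control. The n-Sen cells had been synchronised in G2 with the CDK1 inhibitor RO3306, given nutlin3a, which stabilises p53, for 48 h without RO3306, and then kept for 14 days in 100 nM BI-2536, a PLK1 inhibitor, to remove cells that still divided. The n-Sen control and n-Sen alkali cells had the same senescence treatment followed by 24 h in HEPES-buffered medium of adjusted pH, in a control and an alkaline form. Every senescent group therefore carried nutlin3a, RO3306, BI-2536 and the longer culture together, and their parts in a difference from proliferating cells cannot be told apart. The labels do not say that the 2 libraries of a group came from separate cultures, so the p-values measure the spread between these libraries, which may be technical.

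HMG proteins are small, abundant non-histone proteins that bind DNA or nucleosomes with little sequence specificity and change how open and how bent chromatin is. The HMGB proteins bend DNA with their HMG boxes, the HMGA proteins grip AT-rich DNA in the minor groove with AT hooks, and the HMGN proteins bind the nucleosome core and compete with linker histone H1. In senescent fibroblasts, HMGB1 is known to leave the nucleus and be secreted, HMGB2 is known to be lost from chromatin, and HMGA proteins are known as components of senescence-associated heterochromatin.

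Library totals ran from 40608517 to 54183060 counts, and replicates of a group differed by more than counting noise in all 4 groups. All 12 fibroblast markers were detected. Their summed level was 16990 to 17300 CPM (counts scaled to a common library size, on 1 TMM scale over the 8 libraries) in proliferating cells. It was 37720 to 38570 CPM in n-Sen cells, with 10 higher and 2 lower, Pdgfra and Thy1. Fn1 alone went from a mean of 5515 CPM to 20250 CPM. Among all 19264 genes tested between these groups, 34% were higher and 33.1% lower. The 12 proliferation markers all fell, from a sum of 2164 to 2182 CPM to a sum of 146.7 to 154.5 CPM. All 14 macrophage markers rose, from a sum of 51.18 to 57.43 CPM to a sum of 1170 to 1238 CPM, and none of them was at 0. Lyz2 alone went from a mean of 24.9 CPM to 731.5 CPM. Epithelial markers went from a sum of 65.45 to 71.61 CPM to 4.834 to 5.21 CPM (1 higher, 3 lower and 2 not passing, of 6 tested). Endothelial markers went from 26.68 to 32.96 CPM to 5.537 to 6.776 CPM (2 lower and 1 not passing, of 3 tested). These marker shifts stand beside each difference between n-Sen and proliferating cells given below, and their part in it was not tested.

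Scaled for gene length, the HMG transcript pool of proliferating cells consisted mostly of Hmga1 and Hmga2. Hmga1, which binds AT-rich DNA, had 470.5 ± 32.4 RPKM (CPM divided by the exon length in kilobases; SD, n = 2), the highest of the 9 genes in proliferating cells and in all 3 senescent groups. Hmga2, its paralog expressed mainly in embryonic and mesenchymal cells, had 194.9 ± 2.28 RPKM, and Hmgn1 had 143.3 ± 0.499 RPKM. Hmgn3, at 11.8 ± 0.223 RPKM, and Hmgn5, at 12.4 ± 0.744 RPKM, were the least abundant and lay within their spread of each other.

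In n-Sen cells the summed RPKM of the 9 genes was 200.4, against 987.1 in proliferating cells, 230.6 in n-Sen control and 197.9 in n-Sen alkali cells. The composition differed as well. The HMGA pair made up 67.4% of the pool in proliferating cells and 51.9% in n-Sen cells, while the 4 HMGN genes went from 23% to 41.5% and the 3 HMGB genes from 9.55% to 6.53%. With the counts of near-identical copies described below added to each gene, the HMGB share was 13.3% and 11.6%, the HMGA share 66.5% and 52.2% and the HMGN share 20.2% and 36.3%. Hmgb1 alone then had 99.4 ± 1.01 RPKM in proliferating cells in place of 40.95 ± 0.119 RPKM. Hmgn1, a nucleosome-binding HMGN protein, accounted for 14.5% of the pool in proliferating and 31.2% in n-Sen cells, moving from the third to the second place with a level of 62.5 ± 1.77 RPKM in n-Sen cells. Hmgb2 moved from the sixth place to the last, at 1.07 ± 0.266 RPKM. Lengths are the union of all annotated exons, which can exceed the transcripts present, so that RPKM can be a low estimate. Hmgb1 was given 5023 bases. Hmgn2 was given 3060 bases, while its copy Gm10282 aligned over 1151 bases. For Hmga1 and its copy Hmga1b the values were 2125 and 1602 bases. The extent can differ between genes, and the ranks and shares of the pool depend on these lengths.

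**Figure D1:**
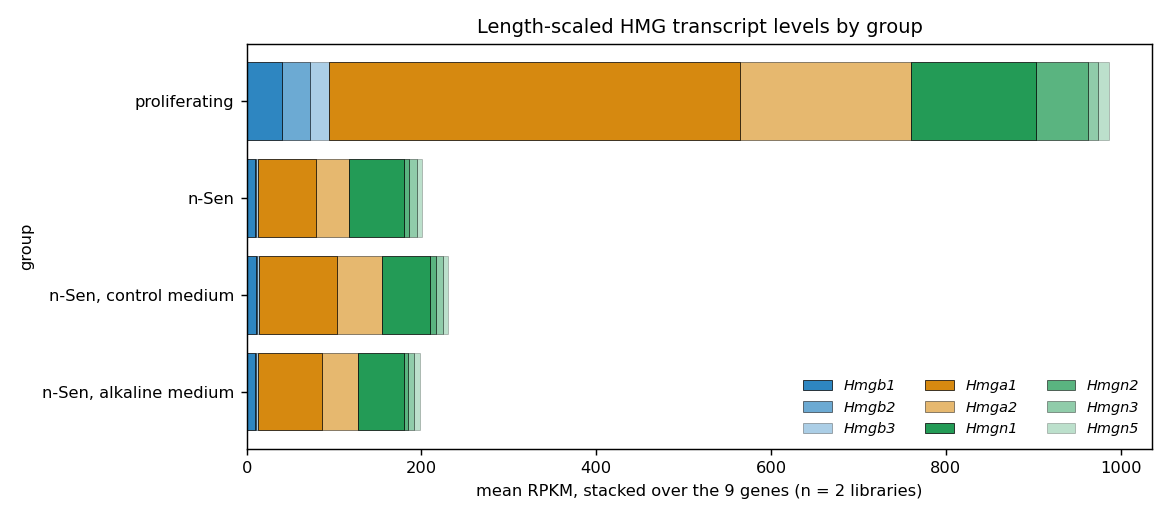
Mean RPKM of the 9 genes (horizontal axis, stacked; colours mark genes) in each of the 4 groups (vertical axis, n = 2 libraries each). The proliferating bar reaches 987.1 RPKM and the 3 senescent bars end between 197.9 and 230.6 RPKM, with Hmga1 the widest segment in each.

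The first comparison set n-Sen against proliferating cells and asked how the HMG genes differ between nutlin3a-induced senescence and growth. All 9 HMG genes fell, by 1.28-fold for Hmgn3 to 29.7-fold for Hmgb2. In the same edgeR quasi-likelihood fit (Benjamini-Hochberg adjusted p under 0.05), 67.1% of the 19264 genes tested were called, 34% of all as higher and 33.1% as lower. For each of the 9 genes both n-Sen libraries lay below both proliferating libraries; such a separation, in either direction, held for 83.4% of all genes. Of the 9 genes, 8 were called lower by more than 1 on the log2 scale, as were 13.1% of all genes tested. The median log2 fold change over the 9 was -2.37, against 0.0015 over all genes. In bulk RNA, fewer cells of a type and less RNA per cell cannot be told apart.

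Among the HMGB genes, Hmgb2 (chr8:57511907-57515999, plus strand, GRCm38, GENCODE vM21), a DNA-bending protein that is abundant in dividing cells, fell the furthest. Its level was 87.4 and 101.8 CPM in the proliferating libraries and 3.77 and 2.65 CPM in the n-Sen libraries, or 3641 and 5111 counts against 176 and 143. Both n-Sen libraries thus lay far below both proliferating libraries, and the log2 fold change was -4.89 ± 0.12 (SE, edgeR adjusted p 9.59e-16). Only 318 of the 19264 genes tested had a larger absolute change. Hmgb3 (chrX:71555918-71560676, plus strand), a paralog studied mainly in blood stem cells, had 49.97 and 47.6 CPM against 5.08 and 4.71 CPM. That was a log2 fold change of -3.32 ± 0.098 (edgeR adjusted p 7.74e-15), or 9.96-fold lower. Hmgb1 (chr5:149046702-149184489, minus strand), which is a nuclear protein in growing cells and an alarmin outside the cell, had 206.1 and 205.3 CPM against 47.9 and 51.0 CPM. The proliferating pair was nearly identical, the n-Sen pair lay far below it, and the change was -2.05 ± 0.059 on the log2 scale (edgeR adjusted p 4.74e-15).

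The promoters of the 2 HMGB genes that fell most are printed here because the genes fell together with the proliferation markers. Each window holds the 250 bases before the RefSeq start (GRCm38.p6), written along the gene's strand, chr8:57511593-57511842 for Hmgb2 and chrX:71555667-71555916 for Hmgb3, both on the plus strand. Capitals mark CCAAT, the letters of the NF-Y box, and TTTGAA, the letters of the cell cycle homology region (CHR), searched on both strands; no 2 matches overlapped in either window.
Hmgb2 promoter: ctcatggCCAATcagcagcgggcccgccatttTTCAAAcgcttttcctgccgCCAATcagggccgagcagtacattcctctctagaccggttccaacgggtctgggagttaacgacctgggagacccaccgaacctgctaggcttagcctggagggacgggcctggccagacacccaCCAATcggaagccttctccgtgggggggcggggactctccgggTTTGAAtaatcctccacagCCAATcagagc
Hmgb3 promoter: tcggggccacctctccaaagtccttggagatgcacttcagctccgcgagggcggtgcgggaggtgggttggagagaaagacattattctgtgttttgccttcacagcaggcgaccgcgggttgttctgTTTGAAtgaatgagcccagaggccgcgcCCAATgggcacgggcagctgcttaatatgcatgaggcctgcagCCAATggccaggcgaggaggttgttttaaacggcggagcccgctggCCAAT
The Hmgb2 window held 4 CCAAT and 2 TTTGAA matches, and the Hmgb3 window held 3 CCAAT matches and 1 TTTGAA match. Among all 32851 RefSeq windows of this length, 33.8% held CCAAT, 2.79% held it 3 or more times, 16% held TTTGAA and 5.55% held both. RefSeq windows were matched for 8 of the 9 genes. Hmgb1 had 3 CCAAT matches before one of its 2 starts and none before the other, and Hmgn1 and Hmgn5 had 2 CCAAT matches each. The windows of Hmgn2, Hmga1 and Hmga2 had neither motif, although Hmgn2 fell by more than Hmgb3 (log2 fold change -3.385 against -3.317). The E2F letters TTTCCCGC, TTTGGCGC, TTTCGCGC and TTTGCCGC, found in 1.86% of all windows, were in none of the members' windows. These matches describe letters in a window and are not evidence of a factor's binding. The motifs were chosen after the start of these sequences had been seen.

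Both HMGA genes fell from high levels, Hmga1 by more than Hmga2. Hmga1 (chr17:27556497-27563674, plus strand) had 1048 and 951.2 CPM in the proliferating libraries and 135.0 and 147.8 CPM in the n-Sen libraries. The 2 proliferating libraries were further apart than the n-Sen libraries, and both stood far above them. The log2 fold change was -2.82 ± 0.059 (edgeR adjusted p 9.04e-17), or 7.06-fold lower. Hmga2 (chr10:120361275-120476469, minus strand) had 1331 and 1309 CPM against 251.4 and 257.3 CPM. Its log2 fold change of -2.37 ± 0.046 (edgeR adjusted p 3.38e-17) left it 5.18-fold lower in n-Sen cells, at 254.3 ± 4.23 CPM (SD, n = 2).

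The 4 HMGN genes ranged from the second largest to the smallest change of the family. Hmgn2 (chr4:133964738-133968650, minus strand), a widely expressed nucleosome-binding protein, had 187.7 and 179.1 CPM against 17.1 and 17.9 CPM, a log2 fold change of -3.38 ± 0.065 (edgeR adjusted p 3.38e-17), or 10.4-fold lower. Hmgn1 (chr16:96120618-96127729, minus strand), its close paralog, had 462.7 and 460.5 CPM against 205.2 and 197.1 CPM. The log2 fold change of Hmgn1 was -1.20 ± 0.048 (edgeR adjusted p 4.61e-13). Per length, Hmgn1 and Hmgn2 stood at 143.3 and 59.9 RPKM in proliferating cells and at 62.5 and 5.72 RPKM in n-Sen cells, so that their ratio widened. Hmgn5 (chrX:109004534-109013404, minus strand), an HMGN protein with a long acidic tail, had 25.04 and 23.0 CPM against 12.0 and 10.6 CPM (-1.09 ± 0.11, edgeR adjusted p 6.68e-08). Hmgn3 (chr9:83109948-83146685, minus strand) had 22.3 and 21.7 CPM against 17.7 and 16.7 CPM. Its libraries did not overlap, and its log2 fold change of -0.35 ± 0.094 (edgeR adjusted p 0.00334) was the smallest among the 9, with 13441 of all genes tested changing by more.

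**Figure D2:**
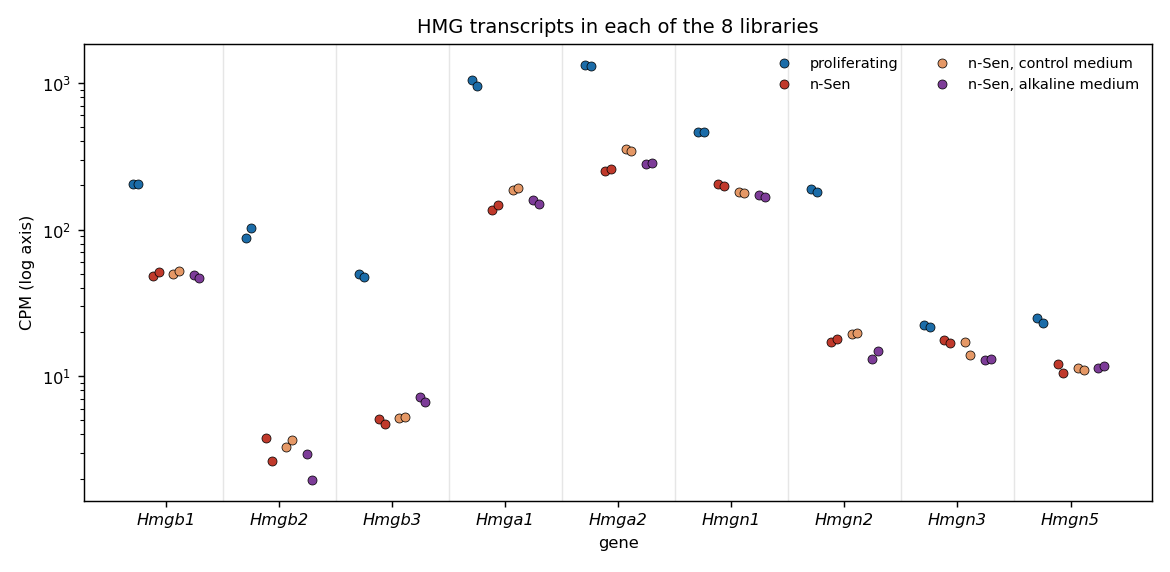
CPM of each HMG gene (vertical axis, log scale) in each of the 8 libraries; points are single libraries, coloured by group, and genes stand along the horizontal axis. For every gene both proliferating libraries lie above all 6 senescent libraries, by the most for Hmgb2 and the least for Hmgn3.

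HMG genes have many near-identical processed copies in the mouse genome, and the deposited counts of the members were partly fractional, as values are where a read is divided among several rows. Rows taken as copies aligned to a member's coding transcripts over at least 200 bases at 90% identity or more. At least 50% of a row's exons had to align, and the row could not overlap the member's own locus. Such rows numbered 170, of which 118 were copies of Hmgb1, 23 of Hmgn2, 12 of Hmgb3, 8 of Hmgb2, 5 of Hmgn1, 2 of Hmgn5 and 1 each of Hmga1 and Hmga2. Hmgn3 had none. The conditions on exons and locus together left out 5 rows, and the one on exons was added after the data had been seen. Of the 170 rows, 98 held counts and 42 held at least 10 counts in a library. The counts of Hmgb1, Hmga1, Hmga2, Hmgn2 and Hmgn3 were fractional in all 8 libraries, those of Hmgb2 in 5, Hmgb3 in 4, Hmgn1 in 2 and Hmgn5 in 1. Hmgn3 thus had fractional counts without a copy row, and the copy of Hmga2 held only whole counts. Both genes overlap other annotated genes, and the source of the fractions was not tested.

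For Hmgb1 the copies together held more counts than the gene's own row. In the proliferating libraries the Hmgb1 row had 8585 and 10307 counts and its copies 12367 and 14590, and over the 8 libraries the copies held 56.9% to 61.6% of the sum. The largest were Gm15387 (chr15:74093686-74094333, minus strand, 99.8% identical over 648 bases), with 4337 and 5011 counts in the proliferating libraries, and Gm21596, with 3151 and 3667. The first 120 bases of the open reading frame of Hmgb1 (648 bases in all) are printed to show how little separates them, read from the GENCODE transcripts. Capitals mark bases that differ from Hmgb1, positions count from the A of its start codon, and these copies were chosen after their counts were seen.
Hmgb1: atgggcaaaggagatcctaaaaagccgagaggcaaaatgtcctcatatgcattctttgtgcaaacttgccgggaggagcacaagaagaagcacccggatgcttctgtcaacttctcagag
Gm15387: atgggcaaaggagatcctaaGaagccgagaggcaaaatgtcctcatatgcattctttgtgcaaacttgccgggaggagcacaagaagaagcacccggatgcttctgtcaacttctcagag
Hmgb1-ps8: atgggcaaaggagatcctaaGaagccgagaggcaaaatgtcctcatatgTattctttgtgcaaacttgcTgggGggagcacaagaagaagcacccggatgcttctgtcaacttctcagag
Gm15387 differed from Hmgb1 in this stretch by A21G alone, and Gm21596, Gm5518 and Hmgb1-ps2 carried the same stretch as Gm15387. Hmgb1-ps8 differed by A21G, C50T, C70T and A74G, an identity of 96.7%. Its counts were whole numbers: 1 and 0 in proliferating, 25 and 7 in n-Sen, 15 and 20 in n-Sen control and 14 and 7 in n-Sen alkali libraries. The n-Sen libraries of this row lay above the proliferating ones, opposite to Hmgb1 itself, at counts too low to pass the filter on low counts in that comparison.

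Hmga1 had a single copy row, Hmga1b (chr11:120762794-120764419, plus strand, annotated as protein-coding), 99.8% identical over 1602 bases. It held 13864 and 15429 counts in the proliferating libraries beside 43676 and 47769 for Hmga1, and 22.7% to 24.8% of the sum over all libraries. Hmgn2 copies, the largest of them Gm10282 with 1306 and 1341 counts in the proliferating libraries, held 14% to 19.3%, and Hmgb2 copies held 15.1% to 27.6%. Copies held 4.74% to 12.6% for Hmgb3, 3.72% to 4.63% for Hmgn1, 2.11% to 5.93% for Hmgn5 and 0.316% to 1.11% for Hmga2. Of 36 copy rows tested between n-Sen and proliferating cells, 35 were called lower, as were 33.1% of all 19264 genes tested. The median log2 fold change of the copy rows was -2.16, and the remaining row, Gm46432, had -1.11 (edgeR adjusted p 0.133). A copy row with fractional counts can share divided reads with its member and is not independent of it. Among the rows tested here, Gm46432, Gm38158 and Gm11914 held only whole counts. With all copies added to their members, the log2 fold change was -2.05 for Hmgb1, -4.87 for Hmgb2, -3.23 for Hmgb3, -2.82 for Hmga1 and -3.42 for Hmgn2, and all 9 genes were again called lower. Several members also overlap other annotated genes, with antisense or opposite-strand transcripts at Hmgb1, Hmga1, Hmga2 and Hmgn3. The libraries were directional, and whether strand was used in counting is not given in the sources used here.

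**Figure D3:**
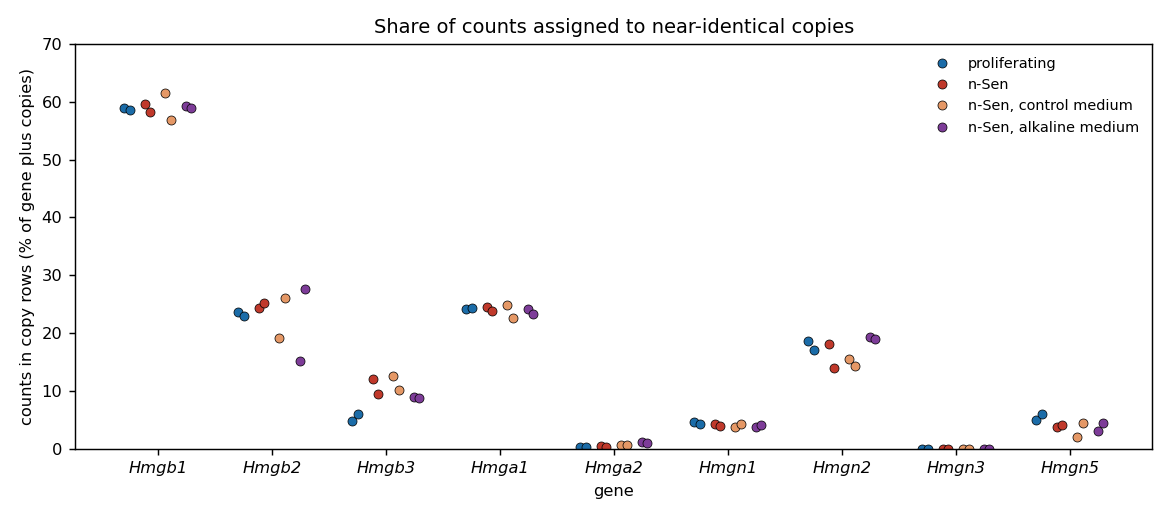
Percentage of the counts of a gene plus its copies that lay in the copy rows (vertical axis), for each HMG gene (horizontal axis) and library (points, coloured by group). Hmgb1 lies between 56.9% and 61.6%, Hmga1 between 22.7% and 24.8%, and Hmgn3 has no copy row and sits at 0.

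Other chromatin genes around the HMG family were counted by list, beside proliferation markers. Over the 7 lists, 91.0% of the 78 tested genes were called between n-Sen and proliferating cells (14 higher and 57 lower). Among all genes tested 67.1% were called, so counts of called genes in a list are to be read against that share. Of 22 relatives that carry an HMG box outside the SOX family, 20 were tested and 12 were lower, 3 higher and 5 not passing (median log2 fold change -0.50). Wdhd1, a replisome adaptor, fell from 43.9 ± 3.57 to 1.97 ± 0.541 CPM, and Ssrp1, the HMG-box subunit of the histone chaperone FACT, from 349.1 ± 8.28 to 108.1 ± 0.661 CPM. Ubtf, the ribosomal RNA gene factor, fell by 1.30 on the log2 scale. Hbp1, a repressor of cell cycle genes, rose by 0.96 ± 0.077 (edgeR adjusted p 5.74e-09), and Hmg20b rose by 0.30. Hmgb4, the testis paralog of the HMGB genes, had 0 counts in all 8 libraries.

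Linker histones, with which HMGN proteins compete for nucleosomes, changed in both directions. Of 7 genes, 5 were higher and 2 lower, with a median of 1.84, and all 5 higher genes were Hist1h1 genes. The libraries hold poly-A RNA, so these values cover polyadenylated transcripts only. Whether linker histone RNA as a whole rose was not measured. Hist1h1c rose from 48.1 ± 3.18 to 171.5 ± 1.44 CPM, and Hist1h1d and Hist1h1e rose by 3.64 and 3.77 on the log2 scale from under 1 CPM. H1f0 fell by 0.77 and H1fx fell by 2.41. Of 10 genes for receptors, partners and export of HMGB1, 5 were higher, 3 lower and 2 not passing. Thbd, which binds HMGB1 at the cell surface, rose from 172.5 ± 1.80 to 344.9 ± 0.394 CPM, the receptor Tlr2 rose by 2.49 on the log2 scale and Cxcr4 by 2.77. Xpo1, the nuclear exporter, fell by 1.66, the inhibitory partner Cd24a fell by 1.59 and Cxcl12 fell by 0.17. Ager, which encodes the receptor RAGE, had 0.70 CPM in proliferating and 0.74 CPM in n-Sen cells and did not pass.

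Of 11 factors tied to senescence heterochromatin, 10 were lower and 1 higher. The heterochromatin proteins Cbx3 and Cbx5 changed by -1.71 and -1.69 and the methyltransferase Suv39h1 by -2.24 on the log2 scale, while Rb1 rose by 1.15. All 7 tested genes of the LIN28, let-7 and IGF2BP circuit, through which HMGA2 is known to be controlled and to act, fell, with Igf2bp1 at -1.66, Igf2bp2 at -1.11 and Igf2bp3 at -1.21. Lin28a had 0 counts in every library. All 11 histone chaperones and variants fell, with Nasp at -3.44, H2afz at -2.70 and Chaf1b at -4.23. The 12 proliferation markers had a median of -4.57, with Top2a at -5.12, Ccnb1 at -5.01 and Ccna2 at -4.31.

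The genes whose profile over the 8 libraries lay nearest to that of Hmgb2 were Kif23, Ncapg, Cdca2, Knstrn and Bub1b, out of 9197 protein-coding genes with a mean of at least 10 CPM. Their root mean square difference from Hmgb2 in mean-centred log2 CPM was 0.221 to 0.252. Kif23, the nearest, had 96.7 CPM in proliferating, 3.00 in n-Sen, 3.27 in n-Sen control and 1.82 in n-Sen alkali cells. The nearest to Hmga2 were Tagln2, Nup85, Lyar, Cdk2 and Rcc1, with differences of 0.11 to 0.143. Tagln2 had 692.7, 132.2, 162.9 and 158.6 CPM in the same order of groups. The 8 points share their library sizes and scaling with both genes compared, and 2 of them are proliferating libraries.

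The second comparison was between alkaline and control medium in n-Sen cells, the contrast the series was designed for. Of the 9 HMG genes, 3 fell, Hmga1, Hmga2 and Hmgn2, by 1.24- to 1.41-fold, and 6 did not pass the test. Among all 19129 genes tested 20% were called, 9.58% higher and 10.4% lower. For 8 of the 9 genes the libraries of one medium all lay on the same side of the other, against 56.7% of all genes, and the median log2 fold change was -0.26 over the 9 and -0.0093 over all genes. With edgeR and with DESeq2 0 HMG genes were called higher, and 1, Hmgb3, was higher at an unadjusted p under 0.05. Beside these values, 7 of 14 macrophage markers were lower and 7 did not pass (sums of 1134 to 1202 CPM in control and 1058 to 1065 CPM in alkaline medium, none at 0), and 3 fibroblast markers were higher, 7 lower and 2 not passing. Their part was not tested.

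Hmga1 had 186.3 and 192.9 CPM in control and 158.0 and 149.7 CPM in alkaline medium, and Hmga2 had 355.8 and 344.6 CPM against 280.2 and 286.2 CPM. Both pairs of alkaline libraries lay below both control libraries. The log2 fold changes of the HMGA genes were nearly equal, -0.31 ± 0.047 for Hmga1 (edgeR adjusted p 3.25e-05) and -0.31 ± 0.042 for Hmga2 (edgeR adjusted p 5.56e-06). The Hmga1b copy fell by 0.31 ± 0.066 as well (edgeR adjusted p 0.00143), a row with fractional counts that can share divided reads with Hmga1. The Hmga2 copy Gm38158, whose counts were whole numbers, had 115 and 100 counts in control and 127 and 121 in alkaline medium (0.42, edgeR adjusted p 0.207). Hmgn2 had 19.5 and 19.7 CPM in control and 13.1 and 14.9 CPM in alkaline medium. Its log2 fold change was -0.49 ± 0.099 (edgeR adjusted p 0.000768). Its tested copies Gm10282, Gm10182 and Hmgn2-ps1 changed by 0.055, 0.068 and -0.71 (edgeR adjusted p 0.914, 0.957 and 0.603). Copies held 15.6% and 14.4% of the summed counts in control and 19.3% and 18.9% in alkaline medium. With copies added, the log2 fold change of Hmgn2 was -0.42 ± 0.092 (edgeR adjusted p 0.00162).

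The 3 HMGB genes and the other 3 HMGN genes did not pass the test. Hmgb2 had 3.27 and 3.69 CPM in control and 2.92 and 1.956 CPM in alkaline medium, from 159 and 184 against 118 and 86 counts. The alkaline libraries lay lower without overlap but differed from each other, and the log2 fold change was -0.52 ± 0.22 (edgeR adjusted p 0.106, unadjusted 95% interval -0.96 to -0.09). It was called lower when copy counts were added (-0.57, adjusted p 0.0406) and without n-Sen alkali replicate 1 (-0.84, adjusted p 0.0153), while without n-Sen alkali replicate 2 it was -0.26 (adjusted p 0.569). Hmgb3 had 5.19 and 5.30 CPM in control and 7.24 and 6.69 CPM in alkaline medium, the only HMG gene apart from Hmgn5 with a higher mean in alkaline medium. Its log2 fold change was 0.40 ± 0.15 (edgeR adjusted p 0.0606), and it was called higher when all 8 libraries shared the fit (0.41, adjusted p 0.0176).

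Hmgn3 had 17.2 and 13.9 CPM in control and 12.9 and 13.1 CPM in alkaline medium, with a log2 fold change of -0.26 ± 0.11 (edgeR adjusted p 0.109). Its 2 control libraries differed from each other by more than the lower of them differed from the alkaline pair, and without n-Sen control replicate 2 it was called lower (-0.41, adjusted p 0.0146), while without n-Sen control replicate 1 the value was -0.0984 (adjusted p 0.749). Hmgb1 had 49.5 and 52.0 CPM against 48.6 and 46.5 CPM (-0.10 ± 0.063, edgeR adjusted p 0.305). Its unadjusted 95% interval ran from -0.23 to 0.02. Hmgn1 had -0.08 ± 0.046 (edgeR adjusted p 0.233), and Hmgn5, the only gene whose libraries overlapped, had 0.04 ± 0.11 (edgeR adjusted p 0.874).

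**Figure D4:**
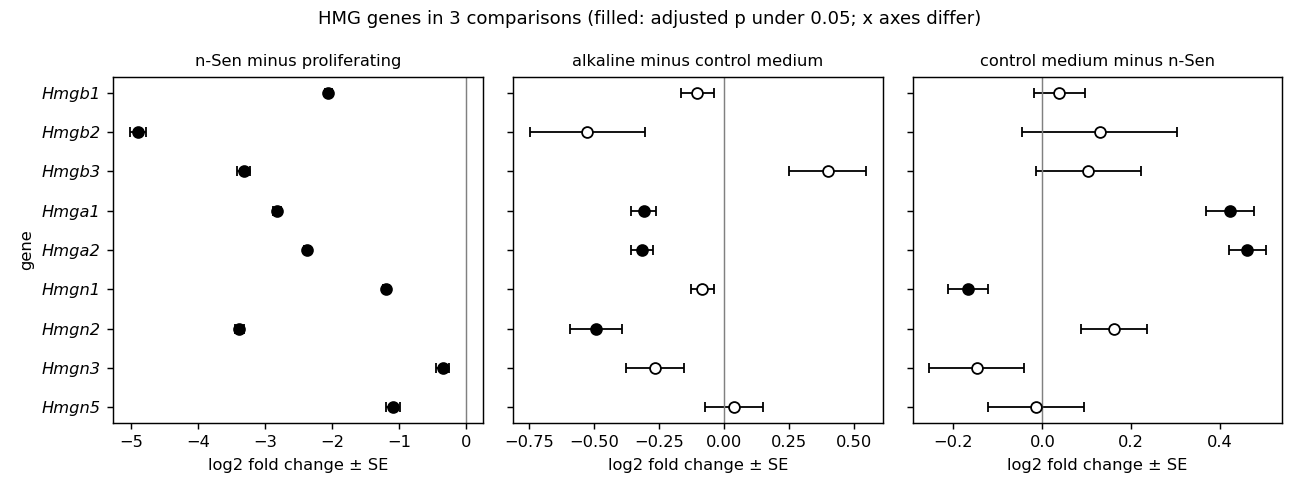
Log2 fold change with its standard error (horizontal axes, of different ranges) for each HMG gene (vertical axis) in the 3 comparisons; filled points had an edgeR adjusted p under 0.05. All 9 points are filled and below 0 for n-Sen minus proliferating, 3 are filled for alkaline minus control medium, and 3 for control medium minus n-Sen.

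Over the 7 related lists, 21.1% of the 76 tested genes were called between alkaline and control medium (5 higher and 11 lower), near the 20% of all genes. Of 19 HMG-box relatives tested, 2 were higher (Tox4 by 0.18 and Cic by 0.15), 4 lower and 13 not passing, with Ubtf at -0.27, Tcf7l2 at -0.49 and Bbx at -0.28 lower. Of 7 linker histones, H1f0 fell by 0.40 ± 0.060 (edgeR adjusted p 2.7e-05) and 6 did not pass. In the HMGB1 receptor list 1 gene was higher, Cxcr4 by 1.17, 4 were lower and 5 did not pass. Thbd fell by 1.13, from 385.7 ± 20.4 to 176.7 ± 2.85 CPM, Cxcl12 changed by -0.42 and Tlr4 by -0.62 on the log2 scale. Of the 11 heterochromatin factors 0 were called by edgeR and by DESeq2, and 1 was higher at an unadjusted p under 0.05. In the LIN28, let-7 and IGF2BP circuit Igf2bp1 rose by 0.25 and 5 of 6 did not pass. Among histone chaperones and variants Supt16, the partner of Ssrp1 in FACT, fell by 0.34 and H3f3a fell by 0.29, and 9 did not pass. Of the proliferation markers, Rrm2 rose by 0.60 and 11 did not pass.

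The third comparison set n-Sen cells in control medium against n-Sen cells without that medium. Hmga1 and Hmga2 were higher in control medium, by 0.42 and 0.46 on the log2 scale, Hmgn1 was lower by 1.12-fold, and 6 genes did not pass. Of all 20215 genes tested 11.1% were called, 6.18% higher and 4.96% lower. The 2 pairs of libraries were separate for 5 of the 9 genes, against 52% of all genes. These groups lie in separately deposited tables, so that medium and any difference of batch cannot be told apart, and the n-Sen and n-Sen control libraries each serve in a second comparison as well.

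Hmga1 had 135.0 and 147.8 CPM in n-Sen and 186.3 and 192.9 CPM in n-Sen control libraries, with a log2 fold change of 0.42 ± 0.054 (edgeR adjusted p 1.14e-05). Hmga2 had 251.4 and 257.3 CPM against 355.8 and 344.6 CPM, with 0.46 ± 0.041 (edgeR adjusted p 6.84e-08). For both genes the order of group means was proliferating, n-Sen control, n-Sen alkali and n-Sen, and no neighbouring groups overlapped. The copy Gm38158 was also higher in control medium, by 1.05 on the log2 scale (edgeR adjusted p 0.00757), with 115 and 100 counts against 61 and 44. Hmgn1 had 205.2 and 197.1 CPM in n-Sen and 180.9 and 177.2 CPM in n-Sen control libraries (-0.17 ± 0.045, edgeR adjusted p 0.0184). Its call was lost without n-Sen replicate 1 (-0.14, adjusted p 0.224), n-Sen control replicate 1 (-0.18, adjusted p 0.0639) or n-Sen control replicate 2 (-0.15, adjusted p 0.132).

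The remaining HMG genes had log2 fold changes between -0.15 for Hmgn3 and 0.16 for Hmgn2 in this comparison. Hmgn2 had 17.1 and 17.9 CPM in n-Sen and 19.5 and 19.7 CPM in n-Sen control libraries, without overlap (edgeR adjusted p 0.196). Hmgb1, at 0.04 ± 0.058 (edgeR adjusted p 0.776), and Hmgn5, at -0.01 ± 0.11 (edgeR adjusted p 0.966), overlapped between the groups. Over the 3 senescent groups Hmgb1, Hmgb2 and Hmgn5 each overlapped with the next group in the order of their means. Hmgb3 ran from n-Sen alkali through n-Sen control to n-Sen without overlap. In this comparison 1 of 14 macrophage markers was lower, and 1 fibroblast marker each was higher and lower. Those marker values were not tested for a part in the HMG differences.

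**Figure D5:**
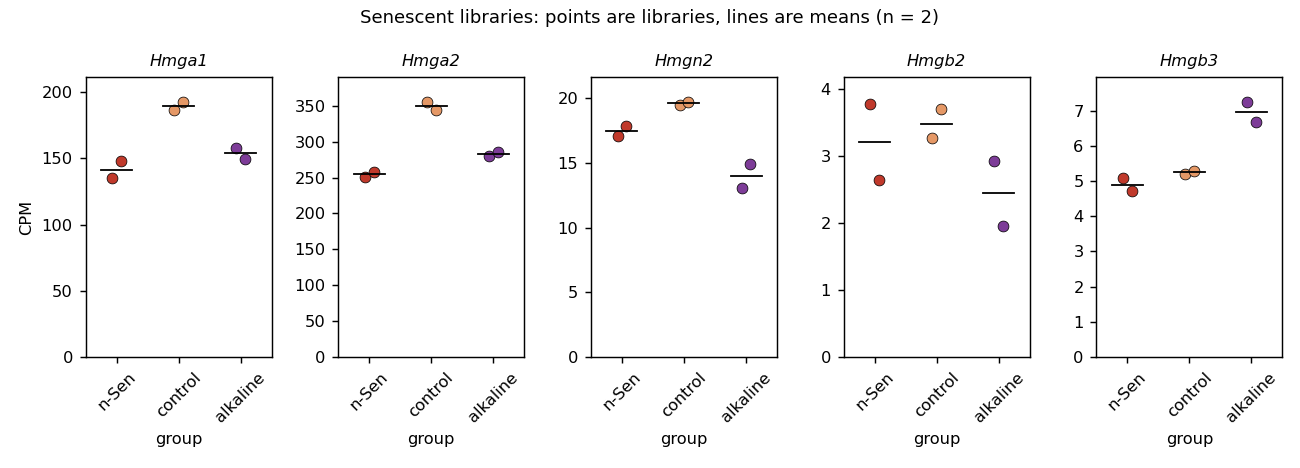
CPM (vertical axes, each from 0) of 5 HMG genes chosen after their values were seen, in the n-Sen, n-Sen control and n-Sen alkali groups (horizontal axes); points are libraries and lines are means of n = 2. Hmga1, Hmga2 and Hmgn2 are highest in control medium, at 189.6, 350.2 and 19.6 CPM, and Hmgb3 is highest in alkaline medium, at 6.96 CPM.

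Over the 7 related lists, 15.2% of the 79 tested genes were called between n-Sen control and n-Sen cells (5 higher and 7 lower), against the 11.1% of all genes. Ubtf rose by 0.41 ± 0.062 (edgeR adjusted p 0.000104) and the other 20 HMG-box relatives tested did not pass. None of 7 linker histones was called by edgeR or DESeq2, and 0 had an unadjusted p under 0.05. Tlr2 rose by 0.78 and Thbd by 0.16 among the 10 HMGB1 receptor genes. Suv39h2 rose by 0.95 and Cbx3 fell by 0.33 among the 11 heterochromatin factors. Igf2bp2 fell by 0.18 among 7 genes of the IGF2BP circuit, and the variant histone gene H3f3b rose by 0.31 among 11 chaperones and variants. Of the 12 proliferation markers 5 were lower, with Ccnb1 at -1.29, Mcm2 at -0.79 and Mcm5 at -0.87.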

How the data were processed

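Poly-A RNA of 8 MEF libraries was sequenced as directional libraries, per the labels' protocols. The submitters' processing notes name the build mm10 and, with no role or order, HISAT2 2.1.0, fastp 0.23.2, DESeq2 1.34.0 and featureCounts (Subread 2.0.2). As deposited, the authors' values are unnormalized estimated counts per gene, 32.7% to 33.7% of the nonzero ones fractional; the settings that shared reads out are not given in the sources used here. They were rounded to whole numbers and tested with edgeR 4.0.16 (filterByExpr, TMM, quasi-likelihood test, Benjamini-Hochberg adjustment over all genes tested, R 4.3.3). SE is the log2 fold change divided by the root of F. The first 2 comparisons used their own 4 libraries and the third all 8. CPM and RPKM were computed from TMM-scaled totals. Symbols, coordinates and transcripts came from GENCODE vM21 (GRCm38), promoters from RefSeq (GRCm38.p6), and copies from blastn 2.17.0. Scripts were tested on simulated data.

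From each of the 7 gene lists, up to 3 higher and 3 lower genes of smallest adjusted p per comparison were named, plus genes at 0 counts, and 5 genes each nearest to Hmgb2 and Hmga2. Cell type markers were given as counts and summed levels, with Fn1, Pdgfra, Thy1 and Lyz2 named after their values were seen. Members and lists were chosen with earlier results of these data known. Alternatives were counts cut to whole parts, RLE factors, DESeq2 1.42.0, no filter, other libraries in the fit, a replicate block, each library left out, and copy counts added. A gene that the naming rule gives is not reported here.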

Additional observations from a re-analysis of the deposited data

How the results depend on the processing

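Each of the 9 falls between n-Sen and proliferating cells was called under all 11 alternatives, and so were the falls of Hmga1, Hmga2 and Hmgn2 in alkaline medium and the rises of Hmga1 and Hmga2 in control medium. In alkaline medium, Hmgb3 became called with all 8 libraries in the fit (0.41, 1 gene higher in place of 0) and Hmgb2 with copy counts added (-0.57). Leaving out each library in turn, Hmgb2 ranged from -0.84 to -0.26 and Hmgn3 from -0.41 to -0.10. For control medium against n-Sen, leaving out each library gave 731 to 816 genes higher (1250 with all) and 450 to 569 lower (1003 with all). There Hmgn1 ranged from -0.20 to -0.14, with 0 to 1 HMG genes lower, and the uncalled Hmgb1 (-0.0054 to 0.081), Hmgb2 (-0.12 to 0.40), Hmgn3 (-0.31 to 0.0031) and Hmgn5 (-0.11 to 0.081) changed sign. A lone library was assumed to vary like the others; the cause of these changes was not tested beyond the smaller number of samples.

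Replicate numbers were not shown to pair samples, since deviations of same-numbered libraries correlated at -0.00305, 0.00679 and -0.00398 in the 3 comparisons. With replicate number as a block, genes higher and lower numbered 6455 and 6271, 2056 and 2254, and 1168 and 910 in the 3 comparisons, against 6553 and 6377, 1833 and 1995, and 1250 and 1003 without it, and no HMG call changed. No setting moved the median of all genes by over 0.1. With 2 libraries a group, and 86 to 184 counts for Hmgb2 in the buffered media, a difference of the size seen for Hmgb2 there (-0.52) did not pass the test.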
